A study of Arabidopsis thaliana with 8 samples.

Results

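The combination of path1-4 and path2-1, alleles of the decapping activators PATH1 and PATH2, was examined by comparing Arabidopsis thaliana plants of the genotype path1-4path2-1summ2-8 with plants of the genotype summ2-8. The libraries were chosen by their genotype label, which gave 3 libraries of each genotype, 6 of the 24 in the series. The genes described are all genes expressed in them: 20346 of 37336 annotated genes passed the filter on low counts. The double mutant carries the alleles path1-4 and path2-1, and its PAT1 gene is not mutant by label. The control carries neither allele. Both genotypes, like all 8 of the series, carry summ2-8, so the comparison says nothing of plants with an intact SUMM2. Also used are path1-4summ2-8, path2-1summ2-8 and pat1-1path2-1summ2-8, with 3 libraries each. The other genotypes, pat1-1summ2-8, pat1-1path1-4summ2-8 and the triple combination pat1-1path1-4path2-1summ2-8, enter the shared estimate of the spread. Some of their mean levels and directions of change are also given. The molecular lesion of each allele is not given in the sources used here. All plants were grown for 6 weeks at 21 °C with 8 h of light and 16 h of dark, and the RNA came from above-ground tissue. Pots of 2 sizes were used and the size is not given by genotype.

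PAT1 proteins are activators of mRNA decapping. In yeast and animals they bind the LSM1-7 ring at the 3′ end of a deadenylated mRNA and the decapping enzyme at its 5′ end, after which a 5′ to 3′ exonuclease degrades the RNA. Arabidopsis has the family members PAT1 (AT1G79090), PATH1 (AT3G22270) and PATH2 (AT4G14990). SUMM2 is an immune receptor that monitors the MPK4 kinase cascade, and PAT1 is a substrate of MPK4. The series was made to find genes behind the developmental programs that depend on this family.

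The 6 libraries held 39180748, 23161517 and 34458582 counts in the double and 23501136, 26216786 and 26440915 counts in the control. Over all 24 libraries the totals ran from 14187145 to 39180748. Levels are given as counts per 1000000 counts after TMM scaling (CPM), a unit that compares one gene between libraries and not genes of different length. Summed levels of 5 leaf markers, antenna and Rubisco genes, were 50990, 58630 and 53560 CPM in the double and 50490, 61350 and 63710 CPM in the control. The 4 seed storage markers together stayed at or under 0.1232 CPM in the double and 0.04176 CPM in the control. The 6 flower markers summed to 0.8255 to 0.9856 CPM in the double and 1.443 to 1.63 CPM in the control. On the first principal component of log2 CPM, 34.7% of the variance, the double libraries lay between -26.8 and -22.6. The control libraries lay between -42.6 and -25.1 on it, overlapping the double, and the pat1-1path2-1 libraries between 10.9 and 13.9. On the second component, 14.5% of the variance, the double libraries lay between -36.7 and -25.5. The control libraries lay there between 5.6 and 16.5. The pat1-1path2-1 libraries lay between -42.2 and -36.8, next to the double, and the 18 libraries of the 6 other genotypes between 2.8 and 26.1.

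The mRNAs of the mutated genes did not pass the test in the double against the control. PATH1 mRNA was at 56.8, 57.7 and 61.9 CPM in the double and 65.5, 63.5 and 59.5 CPM in the control (log2 fold change -0.10 ± 0.07 SE, adjusted p = 0.344). PATH2 mRNA was at 94.3, 96.3 and 101 CPM in the double and 90.2, 87.4 and 80.5 CPM in the control (0.18 ± 0.10, adjusted p = 0.217). In the path1-4 single, PATH1 was called lower than in the control, with means of 48.9 CPM in path1-4 and 62.8 CPM in the control (-0.36, adjusted p = 0.025). The double, at a mean of 58.8 CPM, carries the same allele by label and was called higher than path1-4 (0.26, adjusted p = 0.00941), and the interaction was called (0.34, adjusted p = 0.0299). The PATH1 level called lower in the single was thus not called lower in the libraries labelled path1-4path2-1, and the mRNA level does not settle whether their labels hold. PAT1 mRNA was at 55.2, 53.6 and 59.3 CPM in the double and 50.1, 46.7 and 46.6 CPM in the control. These PAT1 values do not overlap, but the adjusted p was 0.0994. SUMM2 was at 5.4, 5.16 and 4.78 CPM in the double and 5.05, 4.35 and 4.29 CPM in the control (adjusted p = 0.54). With trends of length and GC content removed PATH1 was called lower (-0.17, adjusted p = 0.0354).

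The double mutant differed from the control in a broad and mostly moderate way. An edgeR quasi-likelihood test called 3958 genes at an adjusted p below 0.05, 19.5% of the 20346 tested, of which 1868 (9.18%) rose and 2090 (10.3%) fell. Of the called genes 1259 (31.8%) changed by 1.5-fold or more and 465, or 2.29% of those tested, by more than 2-fold. The median absolute log2 fold change of the called genes was 0.43, and the median over all tested genes was 0.00. In 3768 of the 3958 called genes all 3 double libraries lay beyond all 3 control libraries, which was so for 35.1% of all tested genes. Leaving out path1-4path2-1 replicate 3 lowered the number called to 2448.

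Few genes were called in the single mutants. Against the control, path1-4 had 15 genes higher (0.0737% of those tested) and 21 lower (0.103%), 36 in all (0.177%). The path2-1 single had 2 higher and 2 lower (0.00983% each, 0.0197% together). Unadjusted p-values below 0.05 numbered 6558 for the double, 2135 for path1-4 and 2832 for path2-1. Set against each single mutant, the double had 1755 genes higher (8.63%) and 1964 lower (9.65%) than path1-4, 18.3% together. It had 2015 higher (9.9%) and 2179 lower (10.7%) than path2-1, 20.6% together. Of the 3958 genes called against the control, 1903 were also called against both single mutants. The 3 comparisons share the double libraries, so their calls are not independent. Without path1-4path2-1 replicate 3 the number called fell to 2226 against path1-4 and to 2547 against path2-1. Without path1-4 replicate 2 the number against path1-4 was 2417, and without path2-1 replicate 3 the number against path2-1 was 2683.

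**Figure D1:**
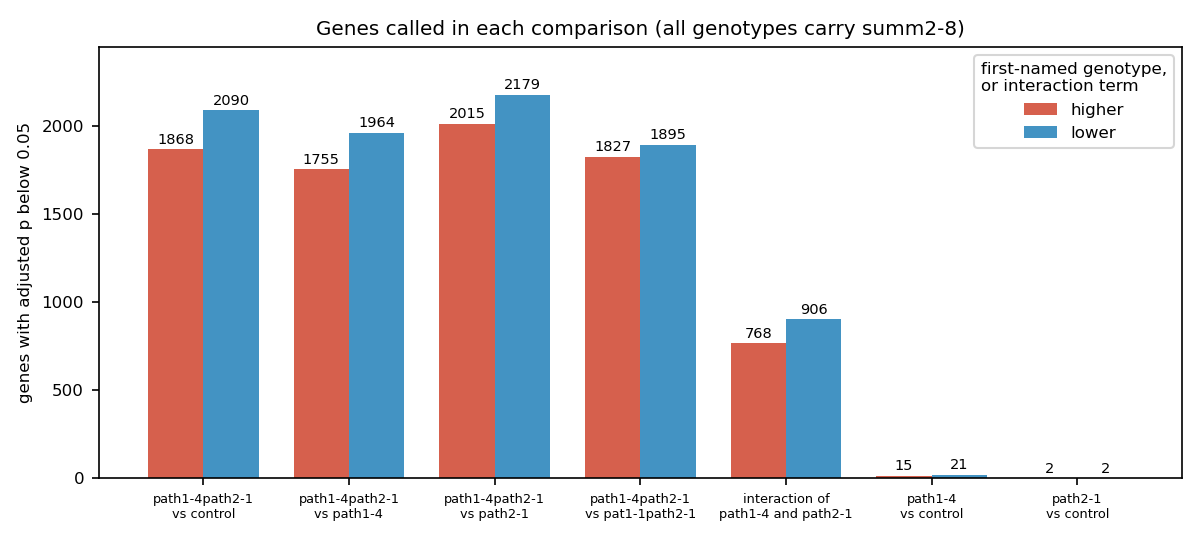
Number of genes with an adjusted p below 0.05 in each comparison, split by direction, with 3 libraries per genotype. The double had 1868 genes higher and 2090 lower than the control, path1-4 had 15 and 21, and path2-1 had 2 and 2.

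The chloroplast antiporter genes KEA1 and KEA3 changed in opposite directions. They encode potassium/proton antiporters, KEA1 in the inner envelope and KEA3 in the thylakoid membrane. KEA1 was at 38.3, 45.7 and 45.4 CPM in the double and 123, 140 and 135 CPM in the control (-1.62 ± 0.11, adjusted p = 4.44e-09). KEA3 was at 151, 166 and 160 CPM in the double and 59.9, 67.1 and 67.2 CPM in the control (1.3 ± 0.09, adjusted p = 2.46e-09). Neither gene's groups overlapped, but for KEA1 this was part of the rule that named it. NSI, a chloroplast acetyltransferase needed for photosynthetic state transitions, was at 21.9, 19.9 and 22.3 CPM in the double and 47.7, 51.3 and 50.1 CPM in the control (-1.22 ± 0.08). ACR12, an ACT domain repeat protein, was at 14.1, 12.8 and 14.8 CPM in the double and 37.6, 43.8 and 38 CPM in the control (-1.51 ± 0.10). The groups did not overlap in NSI or ACR12, but for ACR12 this was part of the same rule. KEA3 and NSI were picked after their values were seen. FUT13, a fucosyltransferase of N-glycan synthesis, fell (-1.61 ± 0.12), and NAXT1, a nitrate efflux transporter, rose (1.58 ± 0.12).

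Other named genes moved as far. HSD3, a hydroxysteroid dehydrogenase, was at 13.0, 12.9 and 13.8 CPM in the double and 4.09, 4.35 and 4.1 CPM in the control (1.66 ± 0.16). The receptor-like kinase CRK31 (1.63 ± 0.26) and the powdery mildew locus family gene MLO7 (1.55 ± 0.22) rose as well. WRKY30, a stress transcription factor, was at 13.3, 10.5 and 12.4 CPM in the double and 5.01, 1.51 and 4.21 CPM in the control (1.77 ± 0.40, adjusted p = 0.00369), with a wide control range. QQS, an orphan gene that affects starch content, was at 2.17, 3.44 and 3.08 CPM in the double and 12.8, 8.31 and 13.0 CPM in the control (-1.99 ± 0.38). Mean QQS was 11.4 CPM in the control and ran from 2.27 CPM (pat1-1) to 5.96 CPM (pat1-1path1-4) over all other genotypes. The double was not called against path1-4 (-0.70, adjusted p = 0.242) or path2-1 (-0.30, adjusted p = 0.637) in QQS. The thionin gene THI2.2, which encodes a small antimicrobial peptide, fell (-2.18 ± 0.32). Among genes picked after their values were seen, AT4G05170, annotated as a basic helix-loop-helix transcription factor at chr4:2667798-2669441 (TAIR10.1), was at 36.9, 40.3 and 41.5 CPM in the double and 2.55, 2.64 and 3.16 CPM in the control. That is a log2 fold change of 3.83 ± 0.15, and in the 2 single mutants the mean levels were 2.23 CPM (path1-4) and 2.61 CPM (path2-1).

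Most of the tested chloroplast-encoded genes rose. Of 133 such genes 107 were tested; 65 rose, 1 fell and 41 did not pass, with a median log2 fold change of 0.76 against 0.00 over all tested genes. The background, for this and every later list, is 9.18% of tested genes higher and 10.3% lower. The 7 genes of the unit ndhH-ndhA-ndhI-ndhG-ndhE-psaC-ndhD, which is transcribed as one long RNA, all rose, by 1.48 to 1.81 on the log2 scale. They encode subunits of the NADH dehydrogenase-like complex of cyclic electron flow, and PsaC of photosystem I, and since they share a transcript and overlap in part they are not independent of each other. NDHG was at 6.9, 21.9 and 16.2 CPM in the double and 3.13, 4.78 and 4.76 CPM in the control. NDHH was at 80.5, 193 and 150 CPM in the double and 37.3, 50.6 and 56.0 CPM in the control. In both genes double replicate 1 was much the lowest of the 3 and still above every control library.

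Other plastid groups had lower medians. All 4 cytochrome b6f genes rose (median 1.00), as did 15 of 25 ribosomal protein genes, with 1 falling (median 0.86), and 9 of 20 tRNA genes (median 0.64). Of the photosystem II genes 7 of 14 rose (median 0.77), of the photosystem I genes other than psaC 3 of 4 (median 0.51), and of the ATP synthase genes 4 of 6 (median 0.58). RBCL, the large subunit of Rubisco, was at 17.5, 34.5 and 25.9 CPM in the double and 14.4, 14.5 and 13.5 CPM in the control (0.87 ± 0.30, adjusted p = 0.0438). The RBCL call was lost without any one control library or path1-4path2-1 replicate 2 or 3 (adjusted p from 0.0838 to 0.192). The exception was RPS14, a ribosomal protein of the small subunit, which was at 30.5, 26.2 and 23.7 CPM in the double and 49.5, 44.5 and 41.6 CPM in the control (-0.75 ± 0.18). Chloroplast genes took 1.67, 2.96 and 2.5% of counts in the double and 1.46, 1.69 and 1.6% in the control, so these shares overlap between the groups; the part of this share in the plastid result was not tested. The number that rose was 28, and the number that fell 2, without path1-4path2-1 replicate 2, and 41 rose without path1-4path2-1 replicate 3. In the single mutants the median of the 107 genes was -0.21 in each, and 64 of the 107 were called in the test of the interaction.

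**Figure D2:**
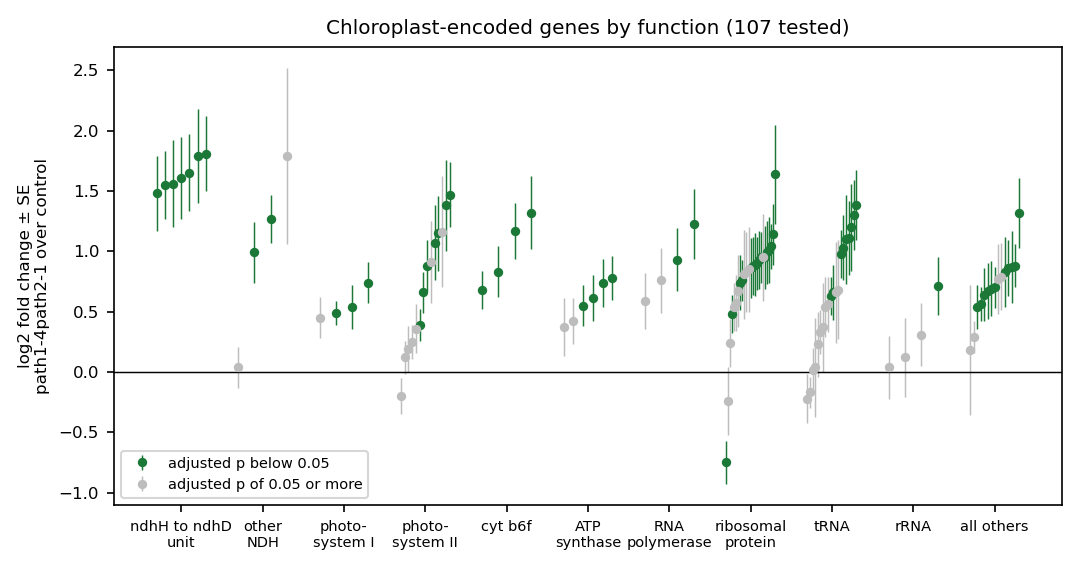
Log2 fold change of each tested chloroplast-encoded gene (double over control, bars are 1 SE), grouped by function; green marks an adjusted p below 0.05. The ndhH to ndhD unit has the highest median, with genes between 1.48 and 1.81, and RPS14 at -0.75 is the called gene below 0.

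The mitochondrial genome did not follow. Of 152 mitochondria-encoded genes 34 passed the filter; 7 fell and 0 rose, with a median of -0.46. ATP6-2, a subunit of ATP synthase, was at 2.39, 2.15 and 1.99 CPM in the double and 5.85, 3.57 and 4.64 CPM in the control (-1.1 ± 0.17). These genes are low, and reads from the copy of mitochondrial DNA in nuclear chromosome 2 may be counted with them. Nuclear genes for photosynthesis did not rise with the plastid genes: of 35 tested photosystem and antenna genes 1 rose and 6 fell (median -0.14). PSAF, a photosystem I subunit, was at 6460, 6430 and 6510 CPM in the double and 8420, 8960 and 9200 CPM in the control (-0.45 ± 0.09). PSAD-1 fell alike (-0.46 ± 0.09), as did the plastocyanin gene PETE1 (-0.50 ± 0.11). Mean levels in path2-1 were 6810 CPM for PSAF and 7060 CPM for PSAD-1. In these genes the double was not called against path2-1 (adjusted p = 0.582 and 0.479), nor path2-1 against the control (adjusted p = 0.113 and 0.162). The 1 member that rose was RCA, the Rubisco activase, at 9150, 9850 and 9680 CPM in the double and 6540, 7640 and 7770 CPM in the control (0.39 ± 0.10). Without path1-4path2-1 replicate 3 the number of members that fell was 3. Nuclear genes described as ribosomal proteins had 7 of 287 members higher, 9 lower and a median of 0.00. The number higher was 12 with trends of length and GC content removed, and 3 or 4 without any one control library or path1-4path2-1 replicate 1, and the number lower 5 without summ2-8 replicate 3 or path1-4path2-1 replicate 3.

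Part of the morning genes of the circadian clock rose. CCA1 and LHY are MYB transcription factors that peak at dawn and repress the evening genes. The 200 bases before each gene start are shown because these 2 genes had the smallest adjusted p of the morning clock list, with the G-box (CACGTG) and the evening element core (ATATCT, or AGATAT on the other strand) in capitals, and also pairs of GAA and TTC spaced by 2 bases, the unit of a heat shock element. The sequences run 5′ to 3′ in the direction of the gene and come from the TAIR10.1 assembly, at chr2:19245391-19245590, plus strand, for CCA1 and at chr1:37872-38071, minus strand, for LHY.
CCA1: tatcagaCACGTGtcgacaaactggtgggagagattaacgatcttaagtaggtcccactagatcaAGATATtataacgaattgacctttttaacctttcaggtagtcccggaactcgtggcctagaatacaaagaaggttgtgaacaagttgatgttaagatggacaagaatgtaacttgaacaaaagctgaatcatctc
LHY: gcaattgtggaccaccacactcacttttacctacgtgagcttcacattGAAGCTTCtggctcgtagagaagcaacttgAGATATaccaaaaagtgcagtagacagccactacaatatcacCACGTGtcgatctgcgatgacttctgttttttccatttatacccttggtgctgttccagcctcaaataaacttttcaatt
Each window holds 1 G-box and 1 evening element core, and LHY also 1 heat shock element pair. Over the same 200 bases of 20204 tested nuclear genes, 6.37% held a G-box, 18.3% an evening element core and 7.54% a heat shock element pair. A match of letters is a description and not a bound site.

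CCA1 was at 79.9, 83.2 and 86.6 CPM in the double and 49.8, 53.6 and 54.4 CPM in the control (0.66 ± 0.07, adjusted p = 4.17e-06). LHY was at 89.6, 85.9 and 86.6 CPM in the double and 48.3, 42.8 and 43.2 CPM in the control (0.96 ± 0.11, adjusted p = 4.38e-06). The double was higher in every library for both genes, with little spread. Of the 14 morning clock genes tested 6 rose and 1 fell, with a median of 0.37. Others that rose were LNK1, a coactivator, (0.40 ± 0.06) and the repressor PRR9 (0.34 ± 0.06). The evening list did not move as a group: of 14 tested 1 rose and 1 fell (median 0.11). The riser was PRR3, a pseudo-response regulator that stabilises TOC1, at 3.89, 3.31 and 2.88 CPM in the double and 1.04, 0.815 and 1.13 CPM in the control (1.75 ± 0.22). ELF3, part of the evening complex, fell (-0.49 ± 0.11). Without summ2-8 replicate 2 the evening list had 2 members higher, and with trends of length and GC content removed 2 lower. GRP7, a clock-controlled RNA-binding protein picked after its values were seen, was at 339, 315 and 304 CPM in the double and 154, 150 and 162 CPM in the control (1.04 ± 0.10). The hour of harvest of each plant is not given in the sources used here, so the genotype and the time of harvest cannot be told apart for clock genes.

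Some cold and dehydration genes rose. COR15A encodes a chloroplast protein that protects membranes in freezing, and RD29A a hydrophilic protein induced by cold, drought and abscisic acid. Their upstream windows are printed with the same 2 clock motifs and, added after the values were seen, the drought responsive element core (CCGAC, or GTCGG on the other strand) in capitals, since these genes had the largest fold changes among the named cold and abscisic acid genes. They lie at chr2:17712331-17712530, minus strand, for COR15A and chr5:21240517-21240716, plus strand, for RD29A.
COR15A: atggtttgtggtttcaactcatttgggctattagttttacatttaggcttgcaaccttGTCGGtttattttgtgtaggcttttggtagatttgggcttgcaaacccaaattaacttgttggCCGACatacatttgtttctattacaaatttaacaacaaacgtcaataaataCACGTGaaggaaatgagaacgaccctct
RD29A: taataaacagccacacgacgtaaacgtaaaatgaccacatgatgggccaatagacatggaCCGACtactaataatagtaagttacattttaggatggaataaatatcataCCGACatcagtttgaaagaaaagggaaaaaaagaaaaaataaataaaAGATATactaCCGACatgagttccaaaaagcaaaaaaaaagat
COR15A has 2 drought responsive cores and 1 G-box, and RD29A has 3 drought responsive cores and 1 evening element core. Of the 20204 windows 11% hold the drought responsive core. In the windows of EBF2 and XTH22, 2 genes that fell and are described further on, none of these 4 motifs was found.

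COR15A was at 468, 366 and 484 CPM in the double and 146, 226 and 185 CPM in the control (1.24 ± 0.26, adjusted p = 0.00204). RD29A was at 451, 327 and 407 CPM in the double and 184, 213 and 158 CPM in the control (1.1 ± 0.22, adjusted p = 0.00179). The groups did not overlap in either gene, and double replicate 2 was the lowest double library in both. Of 15 cold genes tested 3 rose and 0 fell (median 0.19), where 9.18% of all tested genes rose and 10.3% fell. Besides COR15A these were KIN2 (1.0 ± 0.21) and COR15B (0.85 ± 0.15). Without path1-4path2-1 replicate 2 the number that rose was 5. Of 22 abscisic acid and drought genes 6 rose and 3 fell (median 0.12), beside the same shares over all tested genes. HAB1, a phosphatase that represses abscisic acid signalling, was at 63.0, 62.9 and 67.0 CPM in the double and 35.8, 43.1 and 35.4 CPM in the control (0.76 ± 0.11). ABA1, the zeaxanthin epoxidase of abscisic acid synthesis, rose (0.31 ± 0.08), and the receptor gene PYL4 fell (-0.91 ± 0.19). The number that fell was 1 after leaving out any one of 5 libraries, all but summ2-8 replicate 2. Of 15 heat genes 0 rose and 2 fell, namely HSFA7A (-1.07 ± 0.23) and HSP18.2 (-1.0 ± 0.24), with a list median of 0.18. Without summ2-8 replicate 1 or 3, or path1-4path2-1 replicate 2, 1 heat gene rose.

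The F-box genes of ethylene signalling fell. EBF1 and EBF2 encode the F-box proteins that target the transcription factor EIN3 for degradation, and both are induced by ethylene. EBF2 was at 79.7, 71.7 and 82.3 CPM in the double and 208, 177 and 203 CPM in the control (-1.33 ± 0.10, adjusted p = 2.05e-08). EBF1 was at 68.2, 76.5 and 76.6 CPM in the double and 149, 134 and 134 CPM in the control (-0.91 ± 0.11). The groups were far apart in both. The receptor gene ETR2 was at 6.41, 6.54 and 6.81 CPM in the double and 10.1, 10.7 and 8.51 CPM in the control (-0.57 ± 0.12). ETR2 was also called lower in path1-4 (-0.70, adjusted p = 0.0245), and the double was not called against path1-4 (0.13, adjusted p = 0.516). ETR1, the founding receptor, rose slightly (0.20 ± 0.06, adjusted p = 0.0252). Of 26 ethylene genes 2 rose and 4 fell (median -0.14), where 9.18% of all tested genes rose and 10.3% fell. The number that rose was 0 without summ2-8 replicate 2 or 3 or without path1-4path2-1 replicate 1 or 3, and 1 without summ2-8 replicate 1. The ETR1 call was lost without the same 4 libraries (adjusted p from 0.0807 to 0.0995). With trends of length and GC content removed 0 ethylene genes rose, and the adjusted p of ETR1 was 0.0569.

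Some genes of the cell wall and cell surface fell. XTH genes encode enzymes that cut and rejoin xyloglucan in the wall, and of 19 cell wall loosening genes 4 fell and 0 rose (median -0.30). XTH24 was at 192, 136 and 147 CPM in the double and 297, 225 and 296 CPM in the control (-0.78 ± 0.17). XTH22, a touch-induced gene, was at 20.2, 21.5 and 18.5 CPM in the double and 40.8, 22.7 and 92.8 CPM in the control (-1.38 ± 0.40), so its size rests on a scattered control. XTH9 (-0.56 ± 0.11) and XTH16 (-0.53 ± 0.18) fell less. XTH9 was also called lower in path1-4 (-0.67, adjusted p = 0.00915), and the double was not called against path1-4 (0.11, adjusted p = 0.55). Without summ2-8 replicate 3, or without path1-4path2-1 replicate 3, the number that fell was 2. Without summ2-8 replicate 3 the XTH22 value was -0.67 (adjusted p = 0.224), and without path1-4path2-1 replicate 1 or 3 its adjusted p was 0.0539 or 0.0704. The XTH16 call was lost without summ2-8 replicate 2 or 3 or path1-4path2-1 replicate 1 or 3 (adjusted p from 0.0879 to 0.144) and with trends of length and GC content removed (adjusted p = 0.0592). A family singled out after its values were seen, the genes described as arabinogalactan or fasciclin-like proteins, had 17 of 45 tested members lower and 0 higher (median -0.37). These are cell surface proteoglycans. FLA11, known from secondary walls, was at 7.54, 10.2 and 9.06 CPM in the double and 17.5, 19.4 and 15.5 CPM in the control (-0.98 ± 0.13, adjusted p = 3.77e-05). AGP9 was at 386, 355 and 309 CPM in the double and 542, 583 and 581 CPM in the control (-0.70 ± 0.18). FLA9 (-0.82 ± 0.15), AGP7 (-0.92 ± 0.19) and AGP31 (-0.99 ± 0.24) fell too. Without path1-4path2-1 replicate 3 the adjusted p of AGP9 was 0.0552. The median exon length of the 45 genes is 1033 bases, and among the 4049 shortest tested genes, up to 1145 bases, 12.2% fell. With trends of length and GC content removed, 16 of the 45 fell, and leaving out 1 library left 12 to 16. Without summ2-8 replicate 1, 1 member rose.

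Of the 9 guard cell and stomatal lineage genes, all of which were tested, 5 fell and 0 rose, with a median of -0.46. MYB60, a guard cell transcription factor, was at 8.21, 9.08 and 10.3 CPM in the double and 15.1, 16.2 and 16.1 CPM in the control (-0.78 ± 0.10, adjusted p = 3.18e-05). The kinase gene HT1 (-0.55 ± 0.17), the receptor-like gene TMM (-0.46 ± 0.15) and SPCH, which starts the lineage, (-0.64 ± 0.22) fell with adjusted p of 0.0258, 0.039 and 0.0452. In bulk tissue fewer cells of a type and less RNA per cell cannot be told apart. The number that fell was 1 without summ2-8 replicate 2 or 3 or without path1-4path2-1 replicate 1, and 3 without any one of the other libraries. With trends of length and GC content removed 3 fell, and the adjusted p of TMM was 0.0898. Where leaving out a library ended the call, the adjusted p ran from 0.0624 to 0.0929 for HT1, from 0.0723 to 0.24 for TMM and from 0.0512 to 0.173 for SPCH, and the TMM value was -0.26 without path1-4path2-1 replicate 1. The medians of the 9 genes in the single mutants were -0.34 for path1-4 and -0.29 for path2-1.

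Flowering regulators changed in both directions. Of 25 tested 5 rose and 5 fell (median 0.02), where 9.18% of all tested genes rose and 10.3% fell. AGL24, a MADS-box promoter of flowering, was at 7.27, 6.45 and 5.84 CPM in the double and 13.9, 15.4 and 13.3 CPM in the control (-1.12 ± 0.08, adjusted p = 1.18e-08). AGL19, another MADS-box promoter, was at 9.81, 8.78 and 10.2 CPM in the double and 3.93, 2.49 and 3.28 CPM in the control (1.57 ± 0.20). The 2 genes thus moved in opposite directions, and the groups of AGL24 did not overlap. For AGL19 non-overlap was part of the rule that named it. FCA, an RNA-binding protein of the autonomous pathway, was at 73.0, 67.6 and 72.4 CPM in the double and 49.0, 43.3 and 44.4 CPM in the control (0.64 ± 0.07). FPA of the same pathway rose (0.50 ± 0.06), and the repressor TEM2 fell (-0.96 ± 0.15). Without summ2-8 replicate 2 the number of flowering genes that rose was 2.

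RNA processing genes, picked after their values were seen, changed in both directions. AT5G09880, described as a splicing factor, was at 94.6, 89.3 and 98.6 CPM in the double and 49.3, 48.0 and 48.1 CPM in the control (0.96 ± 0.07, adjusted p = 3.74e-09). SCL33, a serine/arginine-rich splicing factor, was at 32.7, 27 and 30.3 CPM in the double and 53.6, 48.1 and 47.1 CPM in the control (-0.72 ± 0.09). RS31, of the same class, rose (0.65 ± 0.06), and ATU2AF65A, which recognises the polypyrimidine tract, fell (-0.45 ± 0.06). Of 30 tested genes described as splicing factors 4 rose and 9 fell (median -0.06). Counts per gene do not separate splice forms.

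Of 24 genes of mRNA decapping and decay 3 rose and 0 fell (median 0.08), where 9.18% of all tested genes rose and 10.3% fell. SOV, a 3′ to 5′ exonuclease that degrades cytoplasmic RNA, averaged 31.8 ± 0.49 CPM in the double and 18.7 ± 2.02 CPM in the control (SD, n = 3 each); its log2 fold change was 0.77 ± 0.08, adjusted p = 1.53e-06. The nuclear exonuclease gene XRN3 rose (0.31 ± 0.07), as did LSM3A, a subunit of the LSM rings, (0.36 ± 0.12, adjusted p = 0.0444). LSM3A was at 12.9, 8.17 and 10.3 CPM in the double and 8.02, 7.81 and 8.86 CPM in the control, which overlap. The LSM3A call was lost without any one library other than path1-4path2-1 replicate 2 (adjusted p from 0.057 to 0.313), and the value was 0.18 without path1-4path2-1 replicate 1. Without summ2-8 replicate 2, 1 member of this list fell.

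Of 26 salicylic acid and immunity genes 2 rose and 0 fell (median 0.14): NPR1, the salicylic acid receptor and coactivator, (0.27 ± 0.08) and the receptor gene SNC1 (0.20 ± 0.07). The number that rose was 9 without summ2-8 replicate 1, 0 without summ2-8 replicate 2 or 3 or without path1-4path2-1 replicate 3, and 1 without path1-4path2-1 replicate 1 or 2. Without summ2-8 replicate 2, 1 member fell. Where leaving out a library ended the call, the adjusted p ran from 0.121 to 0.177 for NPR1 and from 0.063 to 0.172 for SNC1. With trends of length and GC content removed 0 members rose: SNC1 was at 0.05 (adjusted p = 0.619) and NPR1 at 0.24 (adjusted p = 0.0707). Summed over the 26 genes the levels were 1223, 863 and 1137 CPM in the double and 1479, 687.7 and 824.1 CPM in the control, with control replicate 1 the highest. Of 17 genes of the MPK4 cascade and pattern signalling 2 rose and 2 fell (median 0.12). Beside both lists, 9.18% of all tested genes rose and 10.3% fell. FLS2, the flagellin receptor, was at 24.0, 25.9 and 28 CPM in the double and 44.7, 42.1 and 48.8 CPM in the control (-0.80 ± 0.11, adjusted p = 3.18e-05). MKS1, an MPK4 substrate, fell (-0.69 ± 0.12), and BIK1 (0.42 ± 0.13) and MEKK1 (0.26 ± 0.09) rose. The number that rose in this list ran from 0, without summ2-8 replicate 2 or path1-4path2-1 replicate 1, to 4, without summ2-8 replicate 1, and was 1 without summ2-8 replicate 3 or path1-4path2-1 replicate 3. Where leaving out a library ended the call, the adjusted p ran from 0.0602 to 0.151 for BIK1 and from 0.0769 to 0.276 for MEKK1, whose value was 0.16 without summ2-8 replicate 2. With trends of length and GC content removed 1 member rose, and the adjusted p of MEKK1 was 0.0786. Of 25 jasmonate genes edgeR called 0 (median 0.15), DESeq2 called 0, and 6 had an unadjusted p below 0.05. Without summ2-8 replicate 3 the jasmonate list had 3 higher, and without path1-4path2-1 replicate 1 it had 1 lower.

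Genes of carbon supply fell in part. SEN1, a dark-induced gene of the carbon starvation list, was at 299, 262 and 296 CPM in the double and 566, 497 and 596 CPM in the control (-0.95 ± 0.13). Of 14 carbon starvation and trehalose phosphate genes 5 fell and 0 rose (median -0.09); others were DIN4 (-0.59 ± 0.09) and BZIP1 (-0.62 ± 0.11). The number that fell was 3 without summ2-8 replicate 3 or without path1-4path2-1 replicate 1 or 3. Without summ2-8 replicate 2 or path1-4path2-1 replicate 1, 1 member rose. Of 19 starch genes 2 rose and 5 fell (median 0.00), where 9.18% of all tested genes rose and 10.3% fell. The starch phosphorylase gene PHS1 fell (-0.80 ± 0.10), while BAM3, a beta-amylase, (0.44 ± 0.08) and SEX1, the glucan water dikinase, (0.44 ± 0.09) rose. Without path1-4path2-1 replicate 1, 3 starch genes fell. SWEET11, a sucrose exporter of the phloem, was at 66.9, 61.3 and 61.3 CPM in the double and 29.2, 28.2 and 31.7 CPM in the control (1.09 ± 0.16, adjusted p = 0.000109).

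Of 31 auxin genes 2 rose and 6 fell (median -0.21), among them IAA2 (-0.47 ± 0.09) and the carrier genes LAX1 (-0.48 ± 0.09) and PIN7 (-0.41 ± 0.10). The number that rose was 1 without summ2-8 replicate 1 or 3 or path1-4path2-1 replicate 2 or 3. Of 20 shade genes 3 rose and 5 fell (median -0.13). Beside both the auxin and the shade list, 9.18% of all tested genes rose and 10.3% fell. PHYB, the red light photoreceptor, averaged 104.0 ± 5.5 CPM in the double and 73.7 ± 1.97 CPM in the control (SD, n = 3 each); its log2 fold change was 0.50 ± 0.07. HFR1, a negative regulator of the shade response, was at 111, 95.1 and 119 CPM in the double and 77.2, 56.0 and 68.4 CPM in the control (0.69 ± 0.13). In the path1-4 single HFR1 averaged 106 CPM and was also called higher than the control (0.66, adjusted p = 0.0475). Between the double and path1-4 HFR1 was not called (0.04, adjusted p = 0.885). Without summ2-8 replicate 3 the number of shade genes that fell was 2, and without any one double library it was 3.

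**Figure D3:**
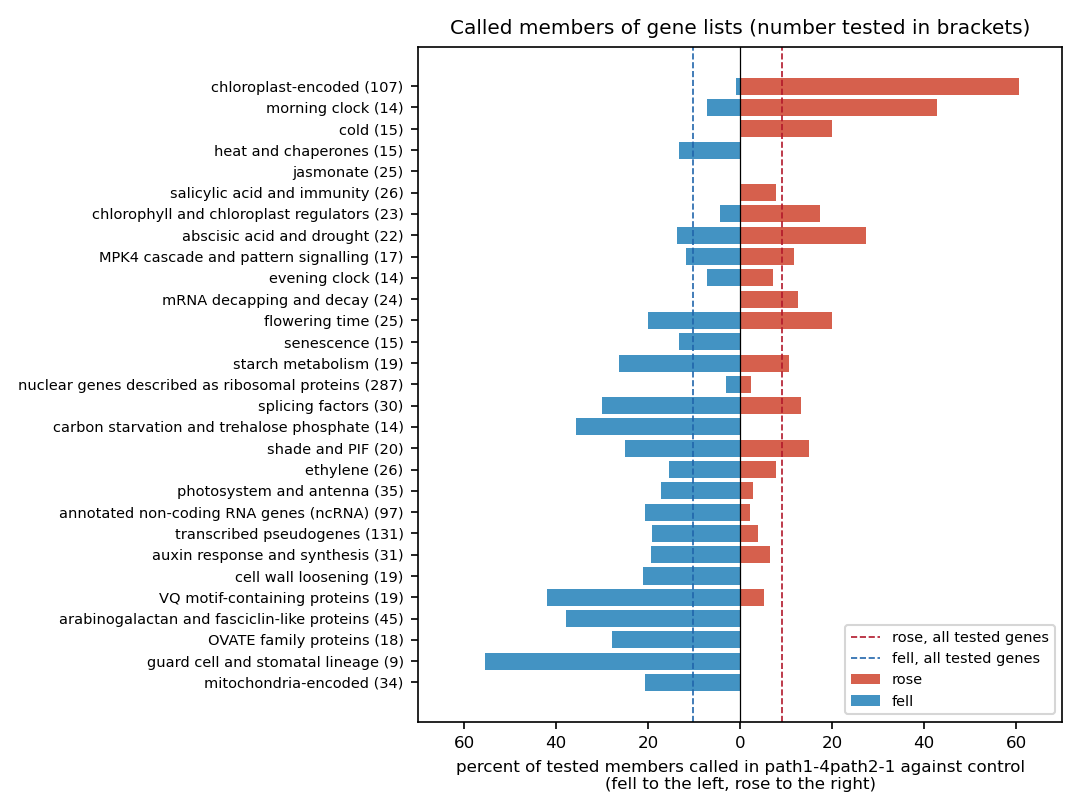
Percent of the tested members of each list that rose (right) or fell (left) in the double against the control, ordered by median fold change, with dashed lines at the shares over all tested genes (9.18% higher, 10.3% lower). Chloroplast-encoded (65 of 107) and morning clock genes (6 of 14) lie on the higher side, and guard cell (5 of 9) and arabinogalactan genes (17 of 45) on the lower side.

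**Figure D4:**
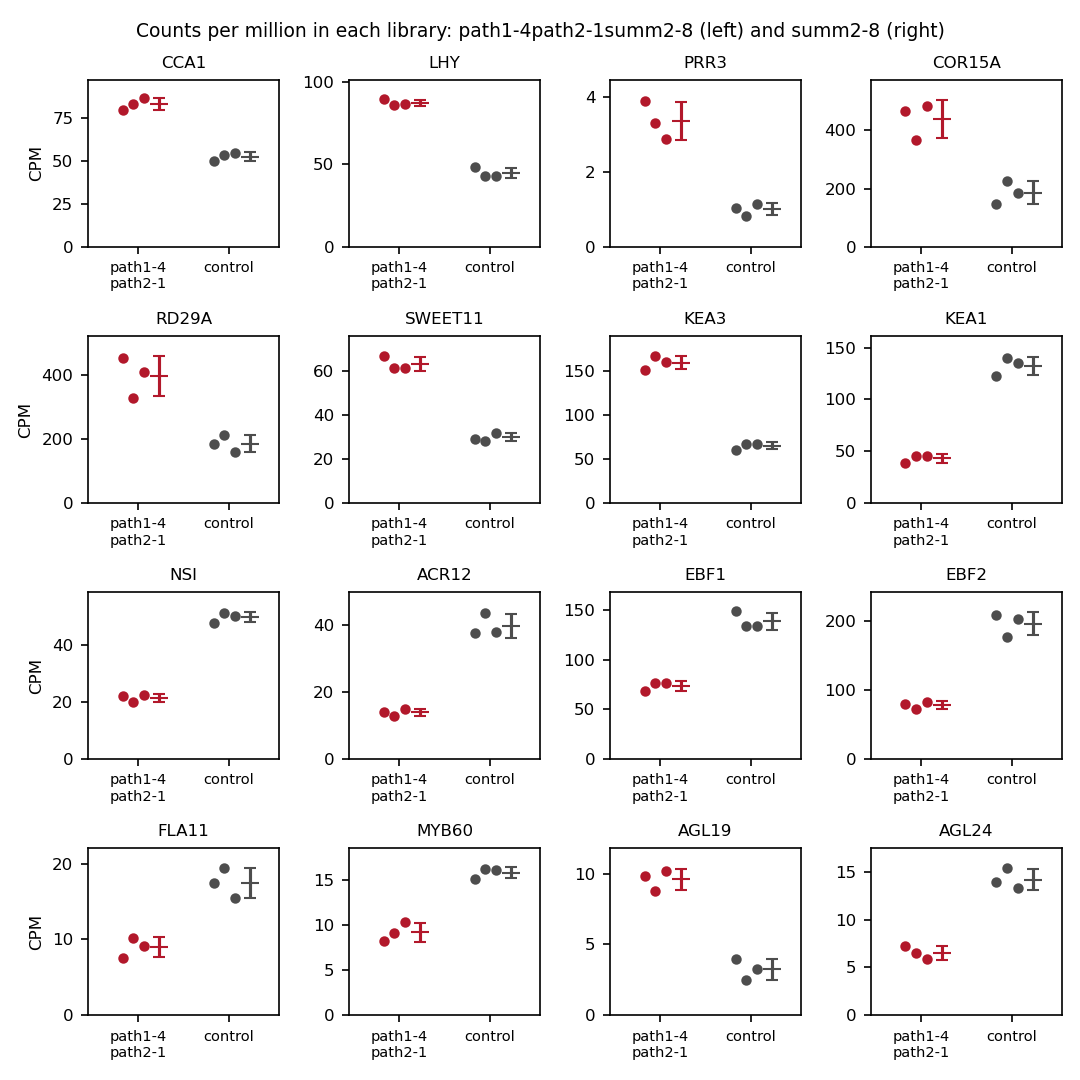
CPM of 16 named genes in each library, double at the left and control at the right of each panel; points are libraries, and the bar beside them is the mean with 1 SD (n = 3). In all 16 panels the 2 groups do not overlap, as for KEA1 (38.3 to 45.7 CPM in the double and 123 to 140 CPM in the control). Non-overlap was part of the rule that named some of these genes, KEA1 among them, and 35.1% of all tested genes show it.

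The levels of some loci in the double were those of a single mutant. SQS2, a gene named for squalene synthase, gave 11 counts over the 3 double libraries and 664 over the 3 control libraries. That is a ratio of 0.0126, with a 95% counting interval of 0.00626 to 0.0227. Mean SQS2 was 0.0968 CPM in the double, 0.115 CPM in path2-1 and 8.44 CPM in path1-4. It was 3.33 CPM in pat1-1path2-1, 0.757 CPM in the triple combination and 8.79 CPM in the control. The level was thus low in the double and path2-1 and near the control in path1-4, and the interaction was not called (0.17, adjusted p = 0.956). SQS1, the neighbouring squalene synthase gene, was at 62.7, 62.0 and 63.6 CPM in the double and 50.1, 55.1 and 56.7 CPM in the control. Chosen after their values were seen, 2 loci were high in the double and in path1-4. AT3G54823, a pseudogene at chr3:20305300-20309796 (TAIR10.1), had 3975 counts in the double and 12 in the control, a 252-fold ratio (95% counting interval 144 to 488). Its mean was 40.4 CPM in the double, 51.0 CPM in path1-4, 0.0745 CPM in path2-1 and 0.158 CPM in the control. AT1G64795, at chr1:24082579-24082848, had 2939 counts in the double and 10 in the control, and was at 32.1 CPM in path1-4 and 0.0255 CPM in path2-1. Within 1 Mb on either side of PATH1 18.9% of 355 tested genes were called, and around PATH2 20.4% of 382, against 19.5% of all genes. The counting intervals cover counting error only.

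Whether the double differs from the sum of the 2 single effects was tested by the interaction, the double minus path1-4 minus path2-1 plus the control on the log2 scale. It was called at 1674 genes, 8.23% of those tested, 768 higher (3.77%) and 906 lower (4.45%). Of these 954 were also called in the double against the control, which uses the same double and control libraries. AT4G05170 had an interaction of 4.24 (adjusted p = 1.21e-09), KEA3 of 1.36 (adjusted p = 8.44e-07), NSI of -1.24 (adjusted p = 8.44e-07), ACR12 of -1.33 (adjusted p = 1.02e-05) and NAXT1 of 1.76 (adjusted p = 6.69e-06). For these 5 genes the log2 fold changes of the single mutants over the control lay between -0.31 and 0.05. Levels near those of the double were also met in pat1-1path2-1, which lacks path1-4. KEA3 averaged 159 CPM in path1-4path2-1, 140 CPM in pat1-1path2-1, 90.5 CPM in the triple combination and 64.7 CPM in the control. NSI averaged 21.4 CPM in path1-4path2-1, 17.9 CPM in pat1-1path2-1, 47.3 CPM in the triple combination and 49.7 CPM in the control. ACR12 averaged 13.9 CPM in path1-4path2-1, 10.1 CPM in pat1-1path2-1, 29.9 CPM in the triple combination and 39.8 CPM in the control. In these 3 genes the triple combination lay nearer to the control than either double did. NAXT1 averaged 14.1 CPM in path1-4path2-1, 14.7 CPM in pat1-1path2-1, 4.34 CPM in the triple combination and 4.71 CPM in the control. Between path1-4path2-1 and pat1-1path2-1, ACR12 was called higher in the former (0.47, adjusted p = 0.00585). NAXT1 was not called between them (-0.07, adjusted p = 0.712). CCA1 and LHY, by contrast, had interactions of 0.26 (adjusted p = 0.132) and -0.13 (adjusted p = 0.641), and LHY was at 59.7 CPM in path1-4 and 71.6 CPM in path2-1, between the double (87.4 CPM) and the control (44.8 CPM). The number of called interactions was 854 and 887 without path1-4path2-1 replicate 3 and 2, 951 and 991 without summ2-8 replicate 2 and 3, 943 without path1-4 replicate 2, and 984 and 947 without path2-1 replicate 1 and 3.

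The pat1-1path2-1 genotype, which shares path2-1 with the double, had levels near those of the double in several named genes. Against pat1-1path2-1 the double had 1827 genes higher (8.98%) and 1895 lower (9.31%), 18.3% together. Of the 3958 genes called against the control 998 (25.2%) were among them, and both comparisons use the same double libraries. KEA1 was at 43.1 CPM in path1-4path2-1, 33.9 CPM in pat1-1path2-1 and 133 CPM in the control. KEA1 was called higher in path1-4path2-1 than in pat1-1path2-1 (0.34, adjusted p = 0.042). AT4G05170 was at 39.6 CPM in path1-4path2-1, 37.8 CPM in pat1-1path2-1, 0.297 CPM in the triple combination and 2.78 CPM in the control. RD29A was at 395 CPM in path1-4path2-1, 393 CPM in pat1-1path2-1, 61.6 CPM in the triple combination and 185 CPM in the control. The triple combination, which holds both alleles as well, thus lay below the control in AT4G05170 and RD29A, and KEA1 was at 103 CPM in the triple combination. Among genes called between pat1-1path2-1 and the double was HIS1-3, a drought-induced linker histone, at 37.2 CPM in path1-4path2-1, 7.1 CPM in pat1-1path2-1 and 60.6 CPM in the control. AHP4, a cytokinin phosphotransfer protein, was at 5.15 CPM in path1-4path2-1 and 0.583 CPM in pat1-1path2-1. In AHP4 the pat1-1 single was at 1.04 CPM and the control at 14.8 CPM. The double was not called against the control there (adjusted p = 0.074). SRG3, a glycerophosphodiester phosphodiesterase of phosphate starvation, was at 13.8 CPM in path1-4path2-1 and 43.3 CPM in pat1-1path2-1. In SRG3 the pat1-1 single was at 43.9 CPM and the control at 23.1 CPM. Without pat1-1path2-1 replicate 1 or 2 the number called was 2006 or 2198, and without path1-4path2-1 replicate 3 it was 2040.

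Direction was also set beside 2 comparisons that share no library with the double or the control. When path2-1 was added to pat1-1, 3451 of the 3958 called genes (87.2%) moved in the direction seen in the double, against 67.0% of all 20346 tested genes. When path2-1 was added to pat1-1path1-4, 2176 of them (55.0%) did, against 50.9% of all tested genes. For the 465 genes past 2-fold the shares were 92.0% and 57.0%. These shares describe directions and carry no test.

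**Figure D5:**
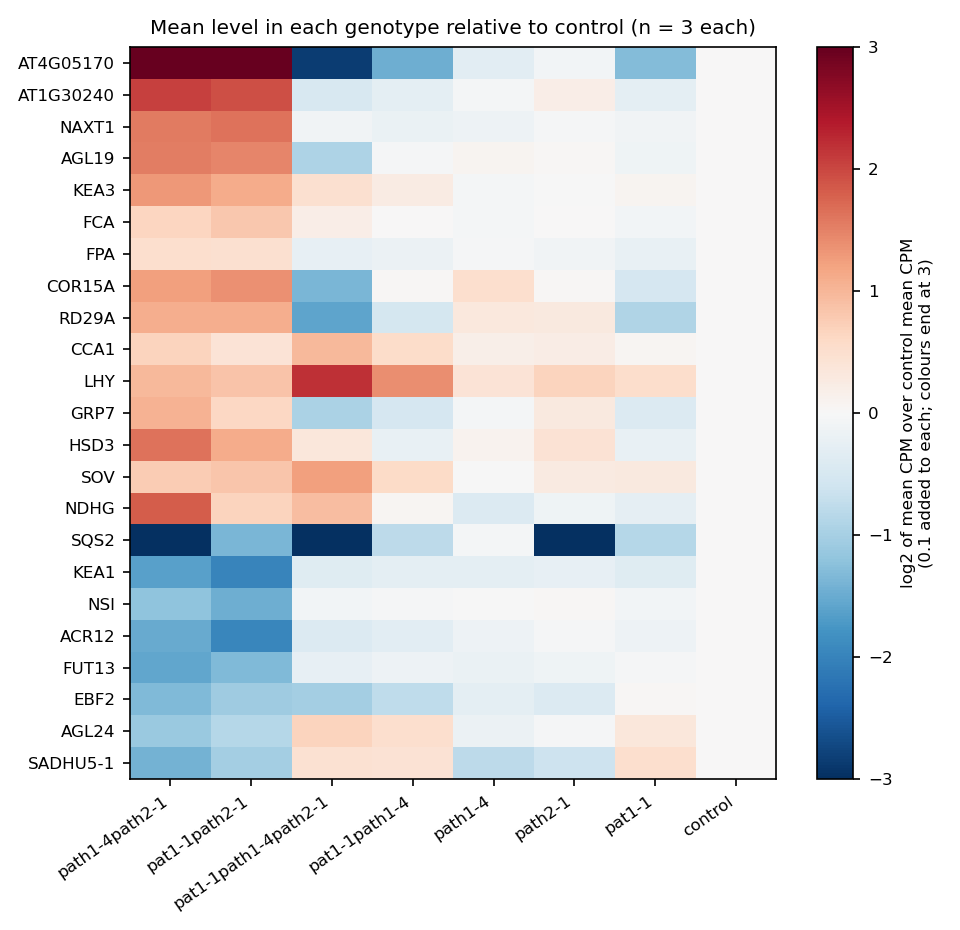
Log2 of the mean CPM in each genotype over the control mean (n = 3 each, 0.1 added to each value, colours end at 3) for 23 named genes; path1-4path2-1 is at the left and the control at the right. At KEA1 the mean was 43.1 CPM in path1-4path2-1, 33.9 CPM in pat1-1path2-1, 103 CPM in the triple combination and 133 CPM in the control.

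Called genes were not spread evenly over gene length. Among the 4049 shortest genes by exon length, up to 1145 bases, 4.22% rose and 12.2% fell, with a median of -0.07. Among the 4041 longest, from 2599 bases, 16.7% rose and 6.90% fell, with a median of 0.08. The fit with length and GC trends removed called 1671 genes higher and 2031 lower.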

How the data were processed

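RNA from above-ground tissue of 8 genotypes, 3 libraries each, was sequenced on the BGISEQ-500 platform, per the labels' protocols. STAR 2.5.1b and the TAIR10 build are named in the submitters' processing notes. The counting step, its annotation and its use of strand are not stated in these sources, so overlapping and antisense genes cannot be told apart. The values tested are whole-number counts per gene as deposited by the authors. The authors also deposited TPM values, scaled by the authors for gene length and library total. These TPM values were not tested: in 19432 of 19432 genes they kept a fixed ratio to the counts within 0.1%. Library columns were matched to genotypes by the library numbers in the labels, and the libraries of a genotype are named replicates 1 to 3 in that order.

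Of 37336 genes, 28486 had a count and 20346 passed filterByExpr. edgeR 4.0.16 (R 4.3.3) scaled all 24 libraries by TMM and fitted 1 term per genotype. Its quasi-likelihood F test gave every p-value, adjusted by Benjamini and Hochberg over all tested genes; a gene is called, and said to have risen or fallen, at an adjusted p below 0.05. The SE is the absolute log2 fold change over the square root of F. The labels call the libraries of a genotype biological triplicates. The biological coefficient of variation was 10.9%. Counts over 20346 genes were simulated from the control means and the fitted spread, with 67, 67 and 66 genes changed 1.5-fold, 2-fold and 4-fold in the double. Against the control 47.8% of 1.5-fold, 88.1% of 2-fold and 93.9% of 4-fold changes were recovered, with 9 false calls of 162. For the interaction these shares were 25.4%, 71.6% and 93.9%, with 3 false calls of 130. In the data 19.5% of genes were called, far more than were changed here, so these rates describe the simulation only.

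Named genes are the 14 that rose most and the 14 that fell most, given a symbol, a mean log2 CPM of at least 1 and groups that do not overlap. To these were added up to 4 members of each of 41 lists by adjusted p. The same was done for the leaf marker, organelle-encoded, ribosomal protein and family lists. Also added were the 5 largest in each direction of the other comparisons, and the mutated genes and SUMM2. Other genes and families are said to have been chosen after their values were seen. The members and lists were chosen with earlier results of these data known. Windows upstream of genes are RefSeq sequence of TAIR10.1. The alternatives were DESeq2 1.42.0, RLE scaling, no filter, only the compared genotypes, organelle genes removed, offsets that take out exon length and GC trends, the fit without pat1-1path2-1, and each library left out in turn.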

Additional observations from a re-analysis of the deposited data

Results flagged for a closer look

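The effect of path1-4 on expression differed between plants with and without path2-1 at 1674 genes, by edgeR's adjusted p for the interaction, and the 10 genes given here had the largest interactions in either direction among those with a symbol and a mean log2 CPM of at least 1. SPPL5, a signal peptide peptidase-like protease, had an interaction of 2.56, with mean levels of 5.33 CPM in the double, 1.41 CPM in path1-4, 1.06 CPM in path2-1 and 1.7 CPM in the control. NDHI, a plastid-encoded subunit of the NADH dehydrogenase-like complex, had an interaction of 2.3, with 24.4 CPM in the double and 8.18 CPM in the control. AT7SL-1, an RNA of the signal recognition particle, had an interaction of -1.94, with 8.99 CPM in the double and 22.4 CPM in the control. At these 3 genes the double was also called against the control.

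In the other 7 genes the double was not called against the control. MAF5, a MADS-box repressor of flowering, had an interaction of -3.0, with 12.9 CPM in the double, 41.2 CPM in path1-4, 46.1 CPM in path2-1 and 18 CPM in the control. KNAT1, a homeobox gene of the shoot meristem, had an interaction of 3.35, with 4.71 CPM in the double, 0.874 CPM in path1-4, 1.96 CPM in path2-1 and 4.02 CPM in the control. Its double libraries were scattered, at 4.29, 8.13 and 1.71 CPM. Neither single was called against the control in MAF5 (adjusted p = 0.256 in path1-4 and 0.171 in path2-1). The same held for KNAT1 (adjusted p = 0.192 and 0.387). The interaction was 3.07 for scpl31 and 2.46 for USPL1. It was -2.76 for CSLG2, -2.05 for NATA1 and -1.83 for CYP710A1. In path1-4 scpl31 was called lower than in the control (-2.21, adjusted p = 0.0381). CSLG2 in path1-4 had a mean of 8.35 CPM with an SD of 8.45 CPM. How these values change when a library is left out was not computed gene by gene.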

How the results depend on the processing

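The number of genes called between the double and the control was 3474 to 4023 under DESeq2, RLE scaling, no filter, organelle genes removed, length and GC trends removed, and the fit without pat1-1path2-1, and 2696 with only the compared genotypes fitted. With only the compared genotypes the number against path1-4 was 1629 and that of the interaction 568; the smaller fit has fewer libraries for the spread. Leaving out 1 library gave 2448 to 3345 against the control, 2226 to 3580 against path1-4, 2547 to 4029 against path2-1, 854 to 2342 for the interaction and 2006 to 2956 against pat1-1path2-1. Members called over the lists numbered 143, and 95 to 142 with 1 library left out. This total leaves out the organelle-encoded genes, the ribosomal protein genes and the families chosen after their values were seen. The list counts that moved when a library was left out stand beside them in the text. DESeq2 called 11 photosystem genes lower, and no filter or only the compared genotypes 3. Only the compared genotypes gave 34 chloroplast genes higher, 2 guard cell genes lower and 0 ribosomal protein genes higher. Of 106 named genes 90 kept their direction and their side of the threshold under each alternative. The 141 organelle genes were not tested under the length and GC trends.

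No paired analysis was possible because the labels number the libraries 1 to 24 without a number shared between genotypes. Among the named genes, calls were lost for 11 with only the compared genotypes in the fit (BIK1, ETR1, LSM3A, MEKK1, NPR1, SIG1, SNC1, SPCH, SQS1, TMM and XTH22), for 6 with trends of length and GC content removed (ETR1, MEKK1, NPR1, SNC1, TMM and XTH16), for 4 with no filter (MEKK1, SNC1, SPCH and TMM) and for 4 without pat1-1path2-1 in the fit (LSM3A, MEKK1, SNC1 and XTH16). The cause was not tested.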

Other observations

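HYH and SPA3 were picked after their values were seen and stand for no list of light signalling genes. HYH, a bZIP transcription factor related to HY5, was at 3.82, 4.22 and 5.01 CPM in the double and 1.88, 1.9 and 1.37 CPM in the control (1.34 ± 0.18, adjusted p = 2.39e-05). SPA3, a partner of the COP1 ubiquitin ligase, was at 41.1, 43.3 and 42.9 CPM in the double and 19.8, 22.4 and 23.4 CPM in the control (0.96 ± 0.09, adjusted p = 5.75e-07). Both genes were higher in every double library. Of 23 genes of chlorophyll synthesis and chloroplast regulation 4 rose and 1 fell (median 0.12). SIG1, a sigma factor of the plastid RNA polymerase, was at 197, 219 and 201 CPM in the double and 156, 172 and 181 CPM in the control (0.28 ± 0.07, adjusted p = 0.0115). Its adjusted p was 0.0639 without summ2-8 replicate 1 and 0.0592 without path1-4path2-1 replicate 2. The protochlorophyllide reductase gene PORB fell (-0.60 ± 0.15). Without summ2-8 replicate 1 or path1-4path2-1 replicate 2 or 3 the number of this list that rose was 2. Of 15 senescence genes 2 fell and 0 rose, where 10.3% of all tested genes fell and 9.18% rose. ORE1, a NAC regulator of leaf senescence, was at 33.4, 26.8 and 34.4 CPM in the double and 82.8, 65.1 and 63 CPM in the control (-1.15 ± 0.19). Without summ2-8 replicate 1, 1 senescence gene rose.

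Some families, chosen after their values were seen, leaned to the lower side. Over all tested genes 10.3% were lower and 9.18% higher. Of 18 tested OVATE family genes, which encode transcriptional repressors of growth, 5 fell and 0 rose (median -0.42). Of 19 genes for VQ motif proteins, partners of WRKY factors, 8 fell and 1 rose (median -0.31). The number of VQ genes that rose was 2 without summ2-8 replicate 1, and 0 without summ2-8 replicate 2 or 3 or path1-4path2-1 replicate 3. AT5G46780, a VQ gene, was at 32.7, 29.6 and 29.1 CPM in the double and 65.7, 51.5 and 57.9 CPM in the control (-0.94 ± 0.09, adjusted p = 5.75e-07). The tested non-coding RNA genes have a median exon length of 844 bases, and of the 4049 shortest tested genes 12.2% fell. Annotated non-coding RNA genes had 20 of 97 members lower and 2 higher (median -0.17). The number lower was 12 without summ2-8 replicate 2, 13, 8 and 12 without path1-4path2-1 replicate 1, 2 and 3, and 12 with trends of length and GC content removed. The number higher was 1 without summ2-8 replicate 2 or 3 or path1-4path2-1 replicate 1. Transcribed pseudogenes had 25 of 131 members lower and 5 higher (median -0.19), with 14 to 16 lower without any one of 5 libraries, all but summ2-8 replicate 2. Among them AT3G30122 was at 0.518, 0.645 and 0.513 CPM in the double and 3.34, 3.65 and 4.06 CPM in the control (-2.74 ± 0.23).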
